A study of Mus musculus with 48 samples.

Results

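The library sorted as MP was set against the library sorted as MDP, 2 of the 48 samples of the study; all are mouse cells. Both populations came from bone marrow and carried no lineage markers (Lin-). MP cells were sorted as Flk2 low and C-kit high, and MDP cells as Flk2 high and c-kit high, so the gates differ in Flk2, the protein that the Flt3 gene encodes. The strain entry reads C57BL/7 for MP and C57BL/8 for MDP, where the cultured samples carry C57BL/6. The entry differs between all the sorted samples and was not read as a genotype. No genetic change or treatment is given for either. The abbreviations are not spelled out in the labels, and the sources used here do not give age, sex, the number of animals pooled or the number of cells sorted. The 2 columns were taken by name from the table of sorted populations, in which 7 further populations were matched to samples and serve as context: CDP, preDC, Ly6c+ and Ly6c- monocytes from bone marrow, and pDC, DN DC and CD8+ DC from spleen. Polyadenylated RNA was sequenced from its 3′ ends and reported as estimated counts per gene.

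Blood cells arise in the bone marrow from stem cells through progenitors that lose alternative fates step by step. Progenitors with high Kit, the receptor for stem cell factor, still divide and give rise to several lineages, and the name MDP is used in the field for a progenitor of macrophages, monocytes and dendritic cells. Flt3, the receptor for Flt3 ligand, is needed for dendritic cell development. Irf8 is a transcription factor that directs progenitors to monocytes and dendritic cells, whereas Gata2, Hlf and Gfi1b belong to the programs of stem, multipotent and megakaryocyte-erythroid progenitors. The comparison asks how the messenger RNA of these programs differs between 2 Kit-high gates.

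Each population is 1 library, so there is no replicate spread and no test. The values below compare these 2 libraries and not 2 conditions. The MP library holds 3867470 counts and the MDP library 5149286, so 1 count is worth 0.259 CPM (counts per 1000000 counts of the library) in MP and 0.194 CPM in MDP. Where a gene had 0 counts, its level could still be as high as 0.776 CPM in MP and 0.583 CPM in MDP, the value of 3 counts. Intervals are exact 95% intervals for counting error only. No molecular identifiers are described, so reads may be copies of the same molecule. The log2 ratio was taken of MP over MDP after adding 5 CPM to each, which understates differences of low genes. A gene was called higher or lower where that ratio reached 2-fold, among genes that averaged at least 10 CPM over both libraries. A gene low in 1 library can pass this filter through the other library alone, so counts per gene list describe the genes that passed. In a bulk sample, fewer cells of a type and less RNA per cell cannot be told apart.

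The gate itself was only partly mirrored in the RNA. Kit stood at 96.4 CPM in MP and 52.2 CPM in MDP, a ratio of counts of 1.85 (1.57 to 2.17). Flt3 stood at 447 CPM in MP and 345 CPM in MDP, a ratio of 1.29 (1.21 to 1.38). Flt3 RNA was therefore not lower in the library labelled MP, although its gate was Flk2 low, and the RNA does not measure the surface protein on which cells were sorted. Among the other 7 populations Flt3 ranged from 8.40 CPM in Ly6c- monocytes to 466 CPM in CD8+ DC. Kit was at 19.8 CPM in CDP, a population labelled c-kit intermediate-low, and at 1.14 CPM in Ly6c+ monocytes. It was at 60.5 CPM (88 counts) in DN DC and 56.3 CPM (72 counts) in CD8+ DC. Both are close to the MDP level, whose counting interval was 46.2 to 58.9 CPM. The 3 genes given as marks of the comparison were measured in both libraries: Kit as above, Spns2 at 323 CPM in MP and 41.4 CPM in MDP, and Ctsg, which encodes the granule protease cathepsin G, at 1203 CPM in MP and 1955 CPM in MDP.

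Most genes lay close to equality. Of 13963 genes in the table, 8482 passed the level filter, and 83.4% of these lay within 1.5-fold. Their median log2 ratio was 0.02, with quartiles of -0.23 and 0.29. MP was at least 2-fold higher for 256 genes (3.02%) and at least 2-fold lower for 131 genes (1.54%), 4.56% in both directions together. The counting interval of the ratio left out equality for all 256 and all 131, yet it also did so for 54.6% of all genes that passed. At this depth, an interval that leaves out equality therefore does not single out the called genes. A 4-fold difference was reached by 34 genes in the higher direction and 9 in the lower. By the same rule, 6.52% of genes differed between MDP and CDP, and 40% between MDP and Ly6c+ monocytes. Those comparisons share the MDP library with this one.

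**Figure D1:**
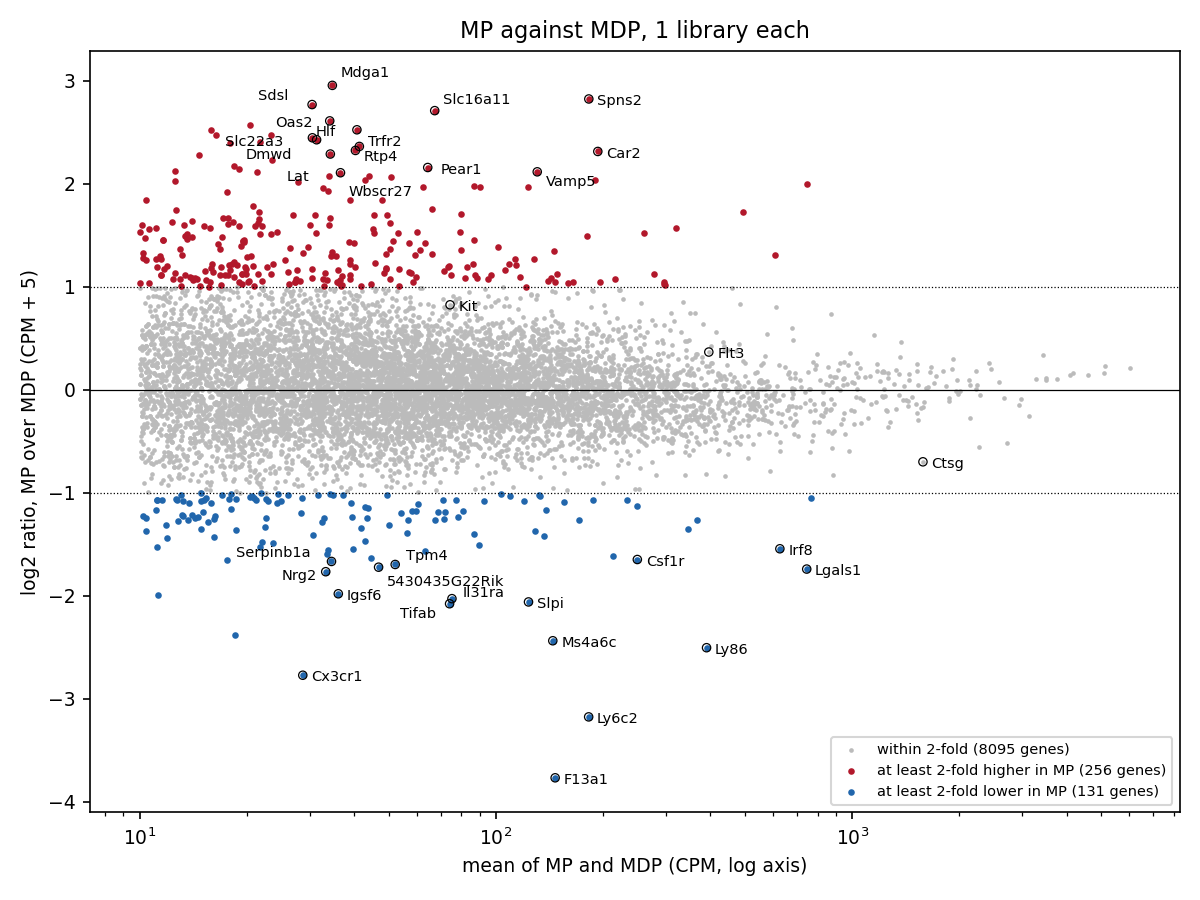
Each point is a gene that passed the level filter, with its mean CPM over both libraries on a log x axis and its log2 ratio of MP over MDP (CPM + 5) on the y axis; dotted lines mark 2-fold. The 256 higher genes (red) and 131 lower genes (blue) lie outside a grey body of 8095 genes, with Mdga1, Spns2 and Sdsl at the top and F13a1, Ly6c2 and Cx3cr1 at the bottom, while Kit, Flt3 and Ctsg stay within 2-fold.

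Genes of stem and multipotent progenitors were the list with the most members higher in MP. Of 33 genes, 32 were in the table and 21 passed the filter. Among those 21, 8 were at least 2-fold higher and 0 lower, beside the 3.02% and 1.54% of all genes. All 21 ratios lay above 0, with a median log2 ratio of 0.96. Of the 8, Hlf, Robo4, Myct1 and Angpt1 were under 10 CPM in MDP and passed the filter through their MP level. The count therefore describes the genes that passed and not the list. Hlf, a PAR bZIP transcription factor of stem cells, had 72.9 CPM in MP and 8.54 CPM in MDP, a log2 ratio of 2.52. It was at 1.27 CPM in CDP, at 0.781 CPM in CD8+ DC and at 0 counts in the other 5 populations. Gata2, a zinc finger factor that stem and progenitor cells require, had 72.1 CPM in MP and 18.8 CPM in MDP, with a log2 ratio of 1.69. In CDP it stood at 2.23 CPM.

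Several surface proteins of early progenitors followed the same order. Gpr56, now named Adgrg1, an adhesion G protein-coupled receptor of stem cells, had 1200 CPM in MP and 297 CPM in MDP, a log2 ratio of 2.00. Eltd1, now Adgrl4, an adhesion receptor also known from endothelium, had 307 CPM in MP and 71.3 CPM in MDP. Robo4, a guidance receptor of endothelial and stem cells, had 31.3 CPM in MP and 1.55 CPM in MDP, and its ratio of counts was 20.1 (9.90 to 47.7). For these 3 genes the MP level exceeded the MDP level by more than 4-fold as a ratio of counts. Myct1, Myc target 1, had 38.5 CPM in MP and 2.33 CPM in MDP, a log2 ratio of 2.57. Ly6a, which encodes the stem cell antigen Sca-1, had 72.4 CPM in MP and 26.0 CPM in MDP, and Angpt1, the gene of angiopoietin 1, had 34.6 CPM in MP and 8.93 CPM in MDP. Not every stem-associated gene differed by 2-fold. Cd34, a sialomucin of progenitors, had 794 CPM in MP and 704 CPM in MDP, and Runx1, a factor needed to form blood stem cells, had 245 CPM in MP and 234 CPM in MDP. Meis1, a homeobox partner of Hox proteins, was in between with 56.4 CPM in MP and 31.3 CPM in MDP.

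Several megakaryocyte and erythroid regulators were higher in MP. Of 29 megakaryocyte and platelet genes, 22 were in the table and 6 passed. Of those 6, 3 were higher and 0 lower, beside 3.02% and 1.54% of all genes. The list had a median log2 ratio of 1.29, which was 0.30 without the level filter. The MP level alone brought Itga2b past the filter, so that the count describes the genes that passed and not the list. Itga2b, the integrin subunit CD41 of megakaryocytes and early progenitors, had 33.4 CPM in MP and 3.50 CPM in MDP. Nrgn, which encodes the calmodulin-binding protein neurogranin, had 762 CPM in MP and 228 CPM in MDP, and Selp, the gene of P-selectin, had 44.0 CPM in MP and 10.1 CPM in MDP. Below the filter, Gp9, a subunit of the platelet receptor for von Willebrand factor, had 63 counts in MP and 9 in MDP. The platelet chemokine gene Pf4 had 5 counts in MP and 6 in MDP, and Vwf had 2 in MP and 0 in MDP.

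Of 40 erythroid genes, 28 were in the table and 14 passed, with a median log2 ratio of 0.38. Among the 14, 4 were higher and 0 lower, beside 3.02% and 1.54% of all genes. Zfpm1, which encodes the GATA cofactor FOG1, had 141 CPM in MP and 32.0 CPM in MDP, a log2 ratio of 1.98. Gfi1b, a repressor needed for erythroid and megakaryocytic development, had 57.1 CPM in MP and 21.0 CPM in MDP. Nfe2, a bZIP factor of the same lineages, had 402 CPM in MP and 192 CPM in MDP. Car2, carbonic anhydrase 2, had 325 CPM in MP and 61.4 CPM in MDP. The globin genes in the table did not share a direction. The alpha globin gene Hba-a2 had 9.31 CPM in MP and 21.6 CPM in MDP, and the beta globin gene Hbb-b1 had 40.6 CPM in MP and 19.6 CPM in MDP. Both were within 2-fold on the scale used, and globin genes are near-identical copies whose reads the counting could split. Klf1, the erythroid Krüppel-like factor, had 0 counts in MP and 8 in MDP. Epor, the erythropoietin receptor, had 0 counts in MP and 3 in MDP. Of 8 heme synthesis enzymes, which all passed, 0 were higher and 0 lower, with a median log2 ratio of -0.23. Trfr2, now Tfr2, a transferrin receptor of liver and erythroid progenitors, was not on the list but is among the 15 largest ratios, with 72.7 CPM in MP and 10.1 CPM in MDP.

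**Figure D2:**
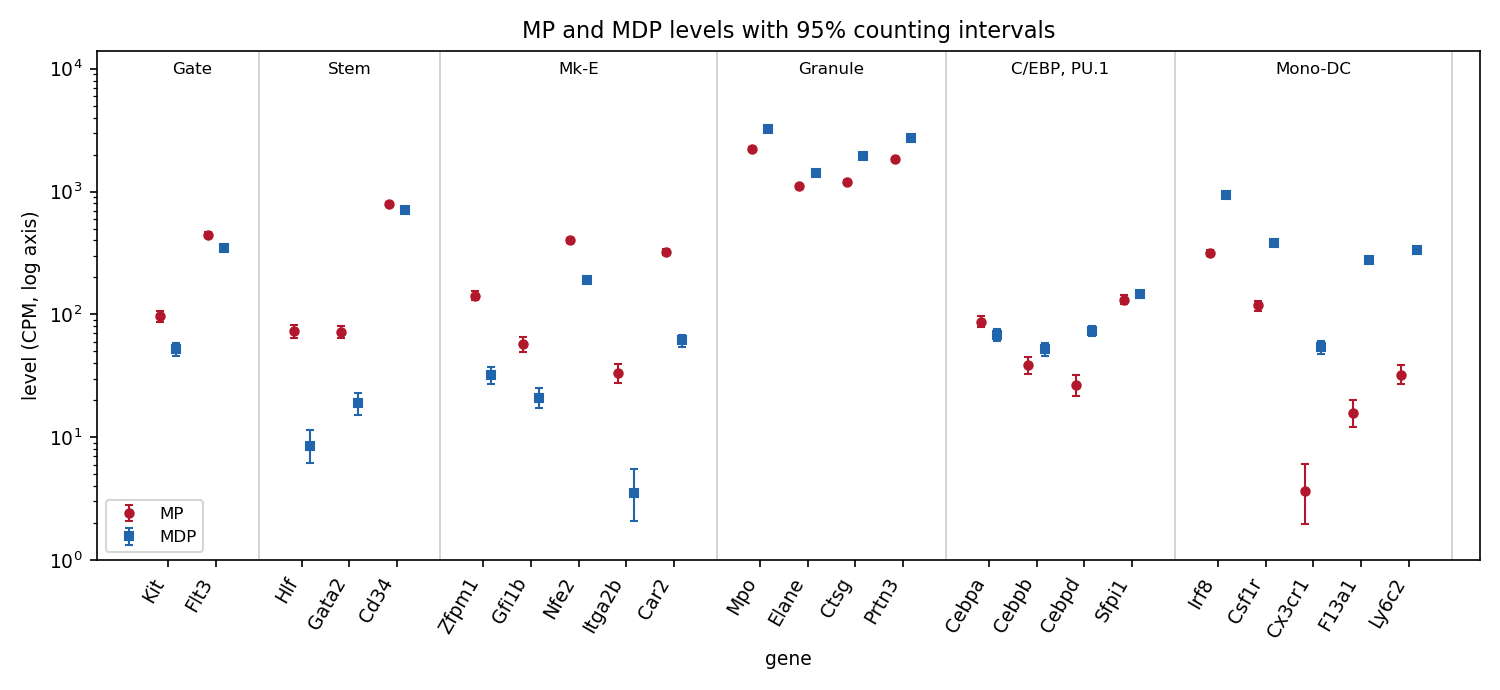
Levels in CPM (log y axis) of 23 genes in MP (red circles) and MDP (blue squares), with bars for the exact 95% counting interval, grouped as gate receptors, stem, megakaryocyte-erythroid (Mk-E), granule, C/EBP and PU.1, and monocyte-DC genes. The MP points of Hlf, Gata2 and the Mk-E genes lie above their MDP points, those of the 4 granule genes lie slightly below, and those of the 5 monocyte-DC genes lie well below. Genes were picked for display, and all Mk-E and monocyte-DC genes shown are past 2-fold. Of 14 erythroid genes that passed the filter, 4 had log2 ratios below 0, and of 22 monocyte genes, 4 had log2 ratios above 0.

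Of 13 genes that handle sphingosine 1-phosphate, 12 were in the table and 10 passed, of which 1 was higher and 1 lower, beside 3.02% and 1.54% of all genes, and 8 were within 2-fold. This lipid guides blood cells between tissue, blood and lymph. Spns2, a transporter that exports it from cells, was at 1250 counts in MP and 213 in MDP, a ratio after scaling of 7.81 (6.75 to 9.08). Spns2 was at 7.26 CPM or less in the other 7 populations. S1pr3, a receptor for the lipid, went the other way with 29.5 CPM in MP and 97.1 CPM in MDP, and CDP had 118 CPM. S1pr1, the receptor that draws lymphocytes out of lymphoid organs, had 35 counts in MP and 0 in MDP, which puts MP at least 15.5-fold higher against the floor of 3 counts, at a level under the filter. The receptor gene S1pr4 had 81.2 CPM in MP and 48.6 CPM in MDP, and Spns3, a relative of Spns2, had 332 CPM in MP and 258 CPM in MDP.

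The remaining genes among the 15 largest ratios, taken over genes that reached 50 CPM in either library, span several functions. Mdga1, a membrane-anchored adhesion protein known from neurons, had 65.4 CPM in MP and 4.08 CPM in MDP, a log2 ratio of 2.96. Slc16a11, a monocarboxylate transporter family member, had 120 CPM in MP and 14.2 CPM in MDP. Slc22a3, an organic cation transporter, had 55.1 CPM in MP and 6.02 CPM in MDP. These 3 genes encode membrane proteins. Sdsl, a serine dehydratase-like enzyme, had 56.9 CPM in MP and 4.08 CPM in MDP, and Pear1, a platelet endothelial receptor, had 108 CPM in MP and 20.4 CPM in MDP. Vamp5, a vesicle-associated membrane protein, had 215 CPM in MP and 45.8 CPM in MDP. Dmwd and Wbscr27, now Mettl27, had log2 ratios of 2.43 and 2.11.

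Lymphoid priming genes gave a mixed picture. Of 33 genes, 31 were in the table and 18 passed, with a median log2 ratio of 0.10. Among the 18, 3 were higher and 1 lower, beside 3.02% and 1.54% of all genes. Of the 3, Lax1 and Ccr9 were under 10 CPM in MDP and passed the filter through their MP level. Dntt, the terminal transferase of early lymphoid progenitors, had 870 CPM in MP and 348 CPM in MDP, and 129 CPM in CDP and 261 CPM in pDC. Lax1, a membrane adaptor of lymphocyte signalling, had 30.5 CPM in MP and 1.17 CPM in MDP, and the chemokine receptor gene Ccr9 had 19.1 CPM in MP and 6.99 CPM in MDP. The lower member was Cnn3, the actin-binding calponin 3, with 37.8 CPM in MP and 97.5 CPM in MDP. Ikzf1, which encodes Ikaros, had 79.4 CPM in MP and 74.0 CPM in MDP. Cd79b, a subunit of the B cell receptor complex, had 111 CPM in MP and 111 CPM in MDP. Il7r, the interleukin 7 receptor of lymphoid progenitors, had 5 counts in MP and 26 in MDP.

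Monocyte and macrophage genes formed the list with the most members lower in MP. Of 38 genes, all in the table, 22 passed, of which 8 were lower and 0 higher, beside 1.54% and 3.02% of all genes. The list had a median log2 ratio of -0.58. Of the 8, Cx3cr1 and Klf4 were under 10 CPM in MP and passed the filter through their MDP level. F13a1, the gene of coagulation factor XIII subunit A, had 15.8 CPM in MP and 278 CPM in MDP, a ratio of counts of 0.0568 (0.0432 to 0.0734). Cx3cr1, the fractalkine receptor that marks MDP, had 3.62 CPM in MP and 53.8 CPM in MDP, a log2 ratio of -2.77. Csf1r, the receptor for the growth factor of macrophages, had 118 CPM in MP and 381 CPM in MDP. Ly86, which encodes MD-1, the partner of the RP105 receptor, had 114 CPM in MP and 667 CPM in MDP. Ms4a6c, a membrane protein gene of monocytes, had 41.6 CPM in MP and 247 CPM in MDP. All 5 are among the 15 genes with the lowest ratios, so that being higher in MDP than in MP describes the choice. Each had a CDP level above that in MP. Of the 22 list genes that passed, 4 had log2 ratios above 0.

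The other 3 monocyte genes past 2-fold were Klf4, a factor needed for monocyte formation, Mpeg1, a pore-forming protein of macrophages, and S100a4, a calcium-binding protein, with log2 ratios of -1.23, -1.29 and -1.25. Clec7a, the beta-glucan receptor dectin 1, had 0 counts in MP and 44 in MDP, so MP was at least 11.0-fold lower against the floor of 3 counts, at a level under the filter. Ccr2, a chemokine receptor of monocytes, had 16 counts in MP and 69 in MDP. Lyz2, the lysozyme gene of myeloid cells, did not share this pattern, with 441 CPM in MP and 367 CPM in MDP, and reads of the Lyz family could be split between its copies. Summed over the 38 genes, the list held 1980 CPM in MP, 3532 CPM in MDP and 51876 CPM in Ly6c+ monocytes.

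Dendritic cell lineage genes were also lower in MP where they differed by 2-fold. Of 34 genes, all in the table, 22 passed, of which 5 were lower and 0 higher, beside 1.54% and 3.02% of all genes. The list had a median log2 ratio of -0.34. Irf8 had 318 CPM in MP and 935 CPM in MDP, a ratio of counts of 0.340 (0.319 to 0.362). Its level was 2153 CPM in CDP, 3374 CPM in preDC and 3522 CPM in pDC, so MP was the lowest of these progenitor and pDC libraries. In the remaining populations Irf8 stood at 1598 CPM in CD8+ DC, 406 CPM in Ly6c+ monocytes, 326 CPM in DN DC and 200 CPM in Ly6c- monocytes. Ly6c2, a GPI-anchored Ly6 protein of monocytes and pDC, had 32.3 CPM in MP and 332 CPM in MDP, and Ly6 genes are similar enough that reads could be split between them. Pld4, a lysosomal exonuclease of DC, had 290 counts in MP and 847 in MDP, a log2 ratio of -1.08. Dpp4, the peptidase CD26, had 11.9 CPM in MP and 29.5 CPM in MDP. The gene listed as 5430435G22Rik, now Rab7b, a GTPase of endosomes, had 19.1 CPM in MP and 74.6 CPM in MDP, and reached 1392 CPM in CD8+ DC.

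Factors of mature dendritic cells were low in both. Zbtb46, a factor of conventional DC, had 1 count in MP and 6 in MDP, Batf3, which CD8+ DC require, had 9 in MP and 27 in MDP, and Irf4 had 10 in MP and 8 in MDP. Relb, an NF-kB subunit, lay most against the direction of the list with 15.0 CPM in MP and 7.38 CPM in MDP. Of 13 MHC class II presentation genes, all in the table, 12 passed, with a median log2 ratio of 0.12. Among the 12, 0 were higher and 1 lower, beside 3.02% and 1.54% of all genes. The lower gene was Ctss, cathepsin S, the protease that trims the invariant chain, with 85.8 CPM in MP and 181 CPM in MDP. Ifi30, a thiol reductase of antigen processing, had 57.7 CPM in MP and 117 CPM in MDP, a log2 ratio of -0.96 that reached -1.01 under TMM scaling. Ciita, the transactivator of these genes, had 17.1 CPM in MP and 7.77 CPM in MDP. H2-Aa had 277 CPM in MP and 234 CPM in MDP, and Cd74, the invariant chain, had 447 CPM in MP and 405 CPM in MDP.

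**Figure D3:**
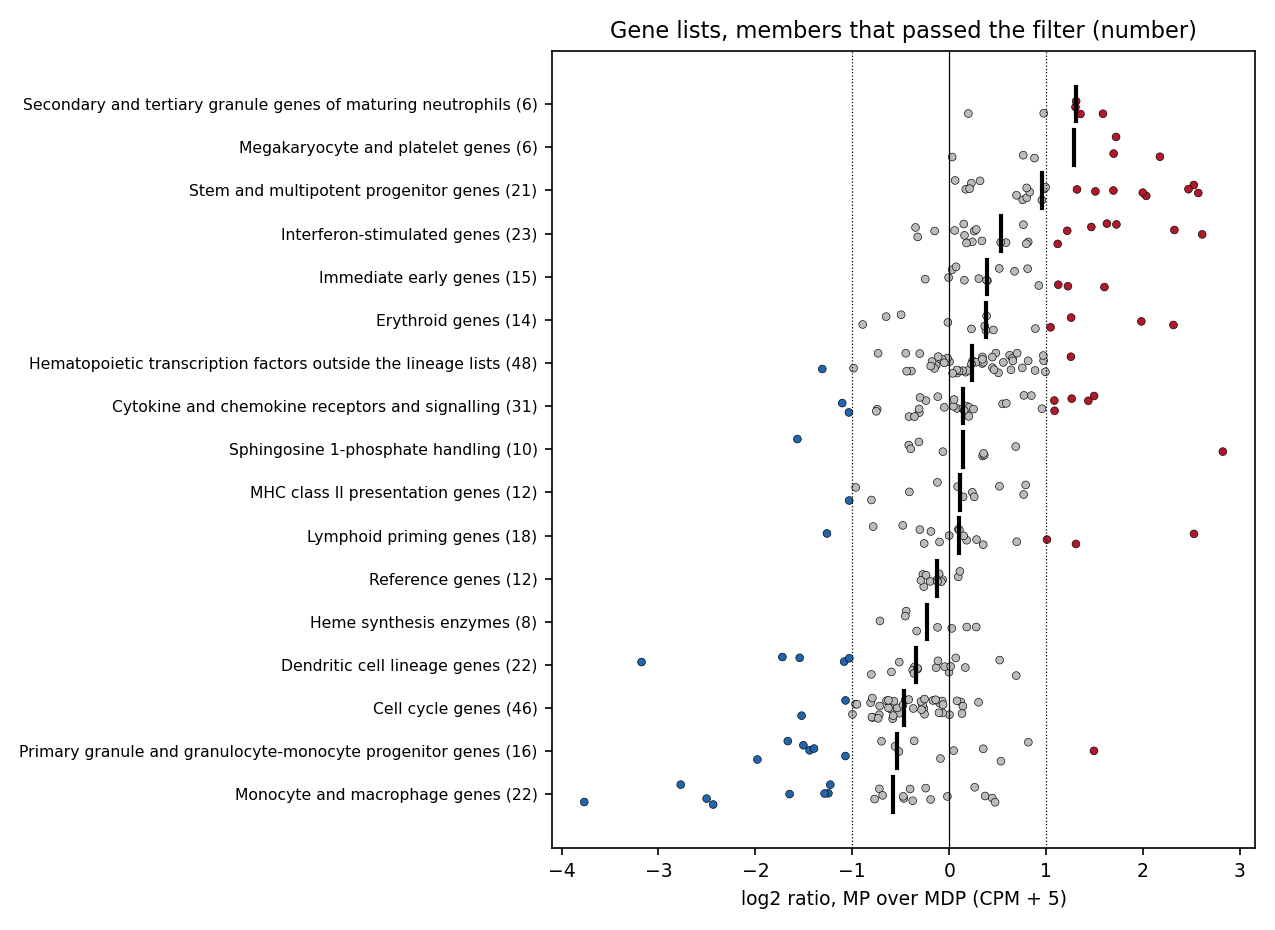
Each point is a list member that passed the level filter, placed by its log2 ratio of MP over MDP (CPM + 5) on the x axis; rows are gene lists with the number of such members, black bars are medians, and dotted lines mark 2-fold. Stem genes have a median of 0.96 and the 6 megakaryocyte genes that passed 1.29 (0.30 without the level filter). Monocyte genes have a median of -0.58, primary granule and granulocyte-monocyte progenitor genes -0.54, and cell cycle genes -0.47.

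Primary granule proteins are made in promyelocytes and granulocyte-monocyte progenitors. The list used holds genes of these proteins and other genes of granulocyte-monocyte progenitors. Of its 21 genes, 20 were in the table and 16 passed, with a median log2 ratio of -0.54. Among the 16, 6 were lower and 1 higher, beside 1.54% and 3.02% of all genes. Mpo, myeloperoxidase, had 2239 CPM in MP and 3211 CPM in MDP, a ratio of counts of 0.697 (0.679 to 0.716). Ctsg had a ratio of 0.615 (0.594 to 0.637). Prtn3, proteinase 3, had 1834 CPM in MP and 2704 CPM in MDP, and Elane, neutrophil elastase, had 1100 CPM in MP and 1415 CPM in MDP. All 4 were within 2-fold. In the 6 populations other than MP, MDP and CDP, Elane stood at 595 to 886 CPM, where Mpo stood at 45.3 to 96.1 CPM and Ctsg at 12.5 to 99.5 CPM. A high and even level of that kind in mature cells makes the Elane values uncertain.

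The members of this granule and progenitor list past 2-fold in the lower direction were Igsf6, Serpinb1a, Anxa3, Ms4a3, Hp and Cst7. Ms4a3, a membrane protein of granulocyte-monocyte progenitors, had 4.14 CPM in MP and 19.8 CPM in MDP, and passed the filter through its MDP level. Serpinb1a, an inhibitor of neutrophil proteases, had 14.0 CPM in MP and 55.2 CPM in MDP, and Hp, haptoglobin, had 45.5 CPM in MP and 128 CPM in MDP. Nkg7, a granule membrane protein of cytotoxic cells, was the higher member with 269 CPM in MP and 92.2 CPM in MDP. Of 24 genes of secondary and tertiary granules, which maturing neutrophils make, 20 were in the table and 6 passed. Among the 6, 4 were higher (Lcn2, Ngp, Camp and Ltf) and 0 lower, beside 3.02% and 1.54% of all genes. Of the 4, Lcn2 and Ltf were under 10 CPM in MDP and passed the filter through their MP level. The count therefore describes the genes that passed and not the list. Ngp had 90.2 CPM in MP and 32.2 CPM in MDP, Camp, the cathelicidin gene, had 86.4 CPM in MP and 31.8 CPM in MDP, and Ltf, lactoferrin, had 18.4 CPM in MP and 4.47 CPM in MDP. The alarmin gene S100a9 had 24.6 CPM in MP and 20.8 CPM in MDP, and its partner S100a8 had 9 counts in MP and 8 in MDP. Mmp8, neutrophil collagenase, had 2 counts in MP and 35 in MDP. The list summed to 344 CPM in MP, 149 CPM in MDP and 3780 CPM in Ly6c+ monocytes. Both gates are Lin-, and the part of maturing neutrophils in these values was not tested.

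Transcription factors outside the lineage lists mostly stayed within 2-fold, as did most genes. Of 60, all in the table, 48 passed, of which 1 was higher and 1 lower, beside 3.02% and 1.54% of all genes. The list had a median log2 ratio of 0.24. Gfi1, a repressor of neutrophil and stem cell programs, had 38.0 CPM in MP and 13.0 CPM in MDP. Cebpd, a C/EBP family factor of myeloid cells, had 26.6 CPM in MP and 73.4 CPM in MDP. Cebpa, which granulocyte-monocyte progenitors require, had 87.4 CPM in MP and 68.0 CPM in MDP, and Cebpb, a C/EBP factor of monocytes and emergency granulopoiesis, had 38.5 CPM in MP and 52.0 CPM in MDP, a ratio of counts of 0.740 (0.602 to 0.908). The 3 C/EBP genes named so far thus did not share a direction. Of the same family, Cebpg had 71.6 CPM in MP and 71.5 CPM in MDP. Cebpe, below the filter, had 34 counts in MP and 21 in MDP. Sfpi1, now Spi1, which encodes PU.1, had 132 CPM in MP and 145 CPM in MDP, a ratio whose interval of 0.810 to 1.02 holds equality. Myc had 410 CPM in MP and 322 CPM in MDP.

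Cytokine receptors and their signalling genes differed in both directions. All 43 were in the table and 31 passed, of which 5 were higher and 2 lower, beside 3.02% and 1.54% of all genes. The list had a median log2 ratio of 0.14. Of the 5, Il12rb1 and Socs3 were under 10 CPM in MDP and passed the filter through their MP level. Il12rb1, a subunit of the receptors for interleukin 12 family cytokines, had 22.2 CPM in MP and 4.66 CPM in MDP. Il27ra, a cytokine receptor subunit, had 59.0 CPM in MP and 18.6 CPM in MDP. Il2rg, the common gamma chain, and Jak3, the kinase that binds it, were both higher, with 195 and 122 CPM in MP against 89.3 and 54.8 CPM in MDP. Socs3, a feedback inhibitor of cytokine signalling, had 16.8 CPM in MP and 4.08 CPM in MDP. Il6st, the shared gp130 subunit of cytokine receptors, and Ifngr2, a subunit of the interferon gamma receptor, were lower, with 36.5 and 70.3 CPM in MP against 84.1 and 149 CPM in MDP. Csf3r, the G-CSF receptor, had 116 CPM in MP and 62.1 CPM in MDP, and Csf2ra, the GM-CSF receptor alpha chain, had 246 CPM in MP and 233 CPM in MDP.

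Of 48 cell cycle genes, all in the table, 46 passed, of which 2 were lower by 2-fold and 0 higher, beside 1.54% and 3.02% of all genes. The other 44 were within 2-fold. The log2 ratio was below 0 for 40 of the 46, with a median of -0.47 beside 0.02 for all genes. The 2 were Bub1 and Kif23. Bub1, a kinase of the spindle checkpoint, had 13 counts in MP and 98 in MDP, a log2 ratio of -1.52. It passed the filter through its MDP level. Kif23, a kinesin of cytokinesis, had 48.1 CPM in MP and 106 CPM in MDP. Mki67, the gene of the Ki-67 antigen of dividing cells, had 246 CPM in MP, 378 CPM in MDP and 947 CPM in CDP. Top2a, the topoisomerase of dividing cells, had 429 CPM in MP and 746 CPM in MDP. Subunits of the replicative helicase varied among themselves: Mcm5 had 602 CPM in MP and 644 CPM in MDP, whereas Mcm3 had 286 CPM in MP and 431 CPM in MDP. Mitotic genes varied too, and Cenpe, a kinesin of the kinetochore, had 102 CPM in MP and 101 CPM in MDP. The list summed to 8852 CPM in MP and 10962 CPM in MDP.

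Interferon-stimulated genes were higher in MP in part. All 30 were in the table and 23 passed, of which 7 were higher and 0 lower, beside 3.02% and 1.54% of all genes. The list had a median log2 ratio of 0.53. Of the 7, Oas2, Rsad2, Ddx58, Gbp2 and Oasl2 were under 10 CPM in MDP and passed the filter through their MP level. Oas2, an enzyme that senses double-stranded RNA, had 62.3 CPM in MP and 6.02 CPM in MDP, a ratio of counts of 10.4 (7.10 to 15.6). Rtp4, an interferon-induced protein, had 70.6 CPM in MP and 10.1 CPM in MDP, and Rsad2, the antiviral protein viperin, had 35.9 CPM in MP and 7.38 CPM in MDP. Ifitm1, a membrane protein that restricts viral entry, had 382 CPM in MP and 173 CPM in MDP. The others were Ddx58, Gbp2 and Oasl2, with log2 ratios of 1.63, 1.47 and 1.22. Gbp3, a guanylate-binding protein, lay most against the list, with 82.0 CPM in MP and 106 CPM in MDP. Oas2 and Rtp4 were at 254 and 108 CPM in Ly6c+ monocytes, and guanylate-binding and Oas genes have close relatives among which reads could be split. Of 22 immediate early genes, all in the table, 15 passed, of which 3 were higher and 0 lower, beside the same shares of all genes. The 3 were Egr1, which passed the filter through its MP level, Ier3 and Btg2. Egr1, a zinc finger factor, had 17.8 CPM in MP and 2.52 CPM in MDP, while Fos had 43.2 CPM in MP and 34.0 CPM in MDP, and Jun had 39.8 CPM in MP and 40.0 CPM in MDP. Handling of the cells during sorting was not tested as a source of these values.

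Defining markers of other cells that the gates should leave out were at 0, while a few genes of these lists were higher in MP. Over all genes, 3.02% were higher and 1.54% lower, and these shares stand beside each list count given here. Of 21 T cell genes, 19 were in the table and 2 passed, Lat and Lck, adaptor and kinase of T cell receptor signalling. Both were higher in MP, and Lat was under 10 CPM in MDP and passed the filter through its MP level. Lat had 60.2 CPM in MP and 8.35 CPM in MDP, and Lck had 38.5 CPM in MP and 16.1 CPM in MDP. The defining T cell genes Cd3d, Cd3e and Cd3g were at 0 counts in both libraries, and the list summed to 138 CPM in MP and 44.1 CPM in MDP. Of 14 NK cell genes 6 were in the table and 0 passed, with a sum of 6.46 CPM in MP and 13.0 CPM in MDP. Of 16 B cell genes 14 were in the table and 4 passed, of which 1 was higher, the B cell coreceptor gene Cd72, with 69.8 CPM in MP and 21.0 CPM in MDP, while Ms4a1, which encodes CD20, was at 0 counts in both and the list summed to 719 CPM in MP and 563 CPM in MDP. Eosinophil, basophil and mast cell genes had 13 of 30 in the table and 2 past the filter, with 0 higher and 0 lower, sums of 54.8 CPM in MP and 35.9 CPM in MDP, and Epx, eosinophil peroxidase, at 0 counts in both. The part of such cells in the results was not tested. Stromal and endothelial genes had 10 of 16 in the table, with sums of 173 CPM in MP and 163 CPM in MDP, and 1 of the 2 that passed was higher, Pdgfrb. Of 12 reference genes, which serve all cells, 0 passed 2-fold in either direction, and their median log2 ratio was -0.12.

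Placed among all 9 sorted populations, both ends of the comparison had their own profile. The 15 genes with the largest ratios had a median level of 70.6 CPM in MP, 10.1 CPM in MDP, 5.42 CPM in CDP and 2.24 CPM in preDC. At least 50 CPM was reached by 15 of them in MP, 1 in MDP, 0 in CDP and 3 in Ly6c- monocytes. The 15 with the lowest ratios had a median of 25.3 CPM in MP, 124 CPM in MDP, 234 CPM in CDP and 292 CPM in Ly6c+ monocytes, and 3 reached 50 CPM in MP, 15 in MDP and 15 in CDP. Since these genes were chosen by their MP and MDP levels, those 2 columns describe the choice and support nothing, whereas the other 7 libraries were not used to choose them. Csf1r, in the lowest set, reached 3443 CPM in Ly6c- monocytes, and Lgals1, the gene of galectin 1, had 341 CPM in MP, 1150 CPM in MDP and 2824 CPM in preDC. Slpi, a protease inhibitor, had 44.7 CPM in MP and 202 CPM in MDP, and Il31ra, a cytokine receptor subunit, had 26.6 CPM in MP, 124 CPM in MDP and 234 CPM in CDP. Tifab, an inhibitor of TRAF signalling, had 25.3 CPM in MP, 123 CPM in MDP and 220 CPM in CDP. Tpm4, a tropomyosin, had 85 counts in MP and 424 in MDP, a log2 ratio of -1.69. For Slpi, Il31ra and Tifab the order was MP, MDP, CDP from low to high.

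**Figure D4:**
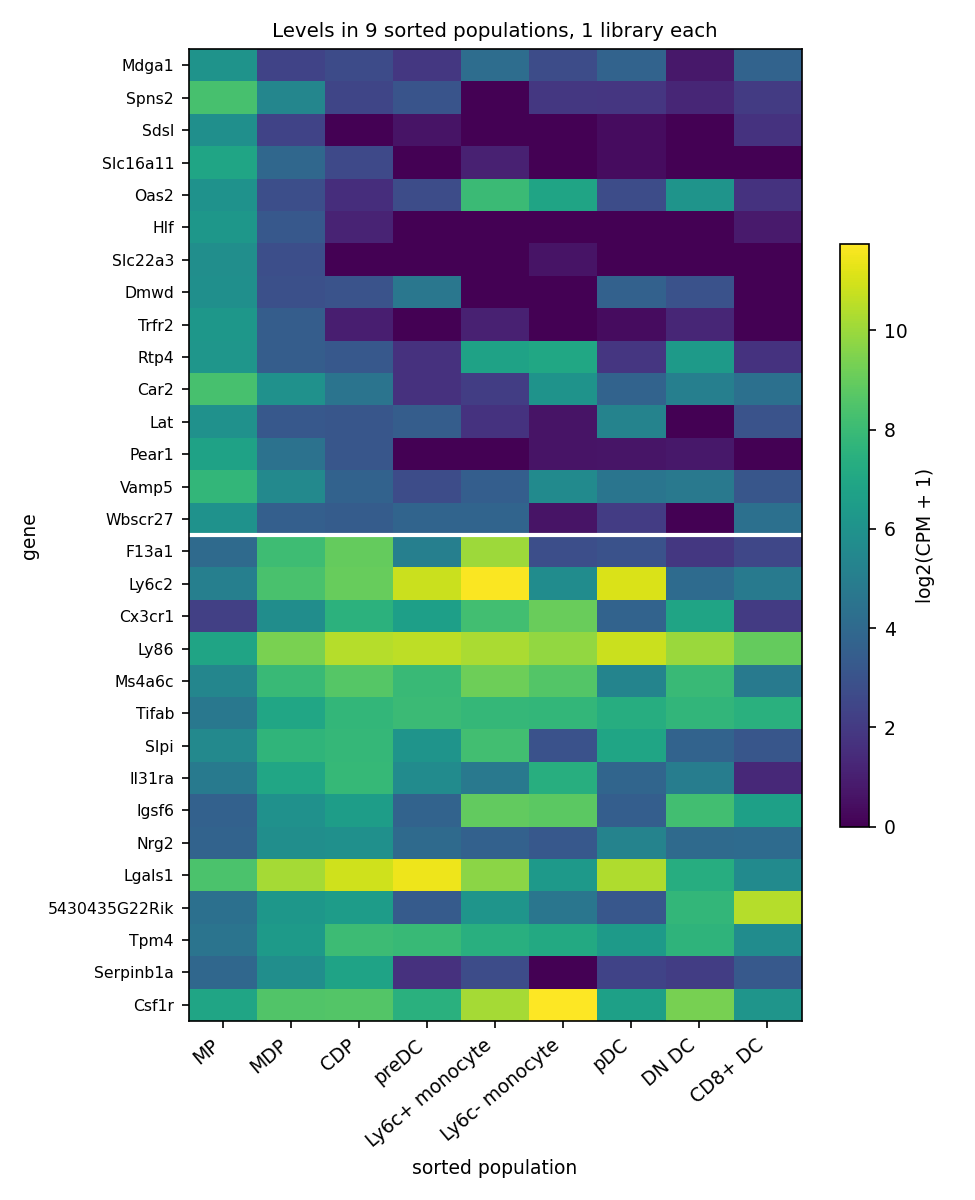
Levels as log2(CPM + 1), shown by colour, of the 15 genes with the largest and, below the white line, the 15 with the lowest ratio of MP over MDP (rows) in 9 sorted populations (columns), 1 library each. The upper set is brightest in MP for most genes, apart from Oas2 and Rtp4 in the monocytes and DN DC; all 15 of the lower set are brighter in MDP and in CDP than in MP.

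Promoter sequences are given for 4 of the genes past 2-fold, 2 higher in MP (Spns2 and Dntt) and 2 lower (F13a1 and Ly6c2). They come from RefSeq with build GRCm38.p6, run 5′ to 3′ on the gene's strand from 250 bases before to 50 bases after the transcript start, and capitals mark a searched motif. The motifs were AGATAA and TGATAA (bound by GATA factors), GAGGAAGT (PU.1), the interferon response element core (GAAA, 2 bases of any kind, GAAA) and TTGCNNAA (C/EBP), on both strands. These 4 were chosen from 12 genes with a promoter in the table after the matches were seen. Spns2 lies on the minus strand at chr11:72474978-72475277, with AGATAA on the opposite strand at bases 132 to 137. Dntt lies on the plus strand at chr19:41029025-41029324, with AGATAA at bases 139 to 144. F13a1 (the second of its listed starts) lies on the minus strand at chr13:37049164-37049463, with GAGGAAGT at bases 265 to 272. Ly6c2 (the first of its listed starts) lies on the minus strand at chr15:75111922-75112221, with GAGGAAGT at bases 143 to 150 and 277 to 284.
Spns2: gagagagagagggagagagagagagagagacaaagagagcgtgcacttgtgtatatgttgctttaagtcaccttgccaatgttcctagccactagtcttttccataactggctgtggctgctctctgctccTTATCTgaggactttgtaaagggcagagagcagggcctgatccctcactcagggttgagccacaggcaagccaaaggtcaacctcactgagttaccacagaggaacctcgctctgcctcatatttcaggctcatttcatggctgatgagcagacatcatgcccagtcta
Dntt: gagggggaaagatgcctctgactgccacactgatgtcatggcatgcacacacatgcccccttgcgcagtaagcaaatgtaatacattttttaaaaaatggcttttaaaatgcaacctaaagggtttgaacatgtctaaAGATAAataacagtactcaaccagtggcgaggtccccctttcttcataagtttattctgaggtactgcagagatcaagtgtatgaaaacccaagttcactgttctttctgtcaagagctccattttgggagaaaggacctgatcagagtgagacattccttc
F13a1: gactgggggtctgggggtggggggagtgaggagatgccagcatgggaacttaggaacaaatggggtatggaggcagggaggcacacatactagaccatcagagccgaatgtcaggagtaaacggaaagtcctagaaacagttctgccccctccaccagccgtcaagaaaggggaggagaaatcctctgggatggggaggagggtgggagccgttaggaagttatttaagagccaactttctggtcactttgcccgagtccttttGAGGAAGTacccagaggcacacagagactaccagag
Ly6c2: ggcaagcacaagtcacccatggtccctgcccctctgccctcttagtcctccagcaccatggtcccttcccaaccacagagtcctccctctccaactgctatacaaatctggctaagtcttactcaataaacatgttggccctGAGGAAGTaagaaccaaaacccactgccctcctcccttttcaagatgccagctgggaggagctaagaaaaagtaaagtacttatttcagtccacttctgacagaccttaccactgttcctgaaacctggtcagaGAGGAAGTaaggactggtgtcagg

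Over all promoters with this window, AGATAA was found in 12.5% of 256 promoters of genes higher in MP, 7.32% of 123 promoters of genes lower in MP, and 6.18% of 8608 promoters of all genes that passed the filter. GAGGAAGT was found in 4.69% of promoters of the higher genes, 8.13% of the lower genes and 3.22% of all that passed. TGATAA was at 5.47%, 5.69% and 3.98% in the same order, the interferon response element core at 3.52%, 4.07% and 3.14%, and TTGCNNAA at 8.59%, 8.94% and 8.17%. Over all 32851 promoters of the table, tested or not, AGATAA was at 11.2% and GAGGAAGT at 3.20%. The shares are a description with no test, a match is not a bound site, and the part of base composition was not tested. None of the 5 motifs was found in the listed windows of Mdga1, Hlf, Gata2, Zfpm1, Cx3cr1, Ly86, Ms4a6c and Irf8, or in that of the first listed start of F13a1.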

How the data were processed

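RNA with poly(A) tails from sorted cells was sequenced from the 3′ ends, per the labels' protocols. Per the submitters' processing notes, TopHat was used, with build mm9. How reads were counted, whether by strand and how reads with several hits were treated, is not given in the sources used here. The authors deposited estimated counts per gene symbol, of which 17.4% (MP) and 18.7% (MDP) are not whole, and these were rounded. A row with no gene name, 0.00986% of MP and 0.00966% of MDP counts, was left out, and 1 of 10 columns was not used. CPM were computed from column totals. Symbols were matched to a reference gene table (12562 directly, 1289 through a synonym, 112 not). Ratios of counts have exact binomial intervals and levels exact Poisson intervals. Nothing was tested, since each population is 1 library.

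The gene lists, the 2 libraries and the promoters were chosen with earlier results of these data known. Named genes are Kit, Flt3, Spns2, Ctsg, Cebpb and Irf8, the 15 genes of each direction with the largest ratio that had at least 50 CPM in either library, and up to 4 members per list with the largest ratios, plus the member most against the list's median. Other genes are named for their known role after their values were seen. Alternatives were TMM (edgeR 4.0.16) and median-of-ratios (DESeq2 1.42.0) scaling, added values of 1 and 10 CPM, counts not rounded, no filter, a filter of 50 CPM, and a fold of 4. Software was Python 3.11.15, scipy 1.17.1 and R 4.3.3.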

Additional observations from a re-analysis of the deposited data

How the results depend on the processing

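The 107 named genes kept the sign of their log2 ratio under each rescaling, added value and rounding alternative, and 6 to 8 of them crossed the 2-fold line under TMM, median-of-ratios and added values of 1 or 10 CPM, against 0 without rounding. The count of genes higher in MP was 388 with 1 CPM added, 395 with no filter, 71 with a filter of 50 CPM and 34 at 4-fold, against 256. The count of lower genes was 76 with 10 CPM added, 47 with a filter of 50 CPM and 9 at 4-fold, against 131. TMM gave 237 higher and 147 lower, and median-of-ratios 237 higher and 146 lower. The median of the primary granule and granulocyte-monocyte progenitor list was -0.58 under both rescalings, against -0.54. With no filter, the late granule median was 0.65 and the megakaryocyte median 0.30, since near-empty genes enter. No paired analysis was possible because each population is 1 library and the labels give neither a replicate number, and no library could be left out. Genes at or under 3 counts in both libraries cannot be compared at this depth.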

Other observations

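Among 75 cytosolic ribosomal protein genes that passed the filter, the median log2 ratio of MP over MDP was 0.07, with 0 higher and 1 lower by 2-fold. The lower gene was Rps25, a protein of the small ribosomal subunit, singled out after its value was seen. Rps25 had 103 CPM in MP and 324 CPM in MDP, a log2 ratio of -1.61, where the next lowest ratio was that of Rps4x at -0.60 and the highest that of Rps9 at 0.33. In the other populations Rps25 stood at 304 CPM in CDP, 101 CPM in preDC, 93.8 CPM in Ly6c+ monocytes, 77.9 CPM in Ly6c- monocytes, 239 CPM in pDC, 182 CPM in DN DC and 116 CPM in CD8+ DC. Ribosomal protein genes have many near-identical copies, so the counting could split their reads, and this was not tested.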
